A study of Mus musculus with 6 samples.

Results

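Neurofilaments are the intermediate filaments of axons, and this account follows the transcripts that encode them together with those of 3 proteins of axon growth and axonal microtubules in the mouse spinal cord. The genes are Nefl, Nefm, Nefh, Ina, Prph, Gap43, Stmn2 and Mapt. They were taken by name from the array's own annotation as all non-control probes for these 8 genes, which gave 14 of 41174 probes, 3 genes with 1 probe, 4 with 2 probes and 1, Mapt, with 3 probes. Total RNA from the spinal cord of 8-week-old male C57BL/6 mice was measured on Agilent single-colour (Cy3) arrays, 1 array per sample, in 3 wild-type samples and in 3 samples of the dhtkd1 null genotype (dhtkd1-/-). The labels name no treatment. The labels number the replicates without saying that each is a separate animal, so each p-value here reflects only how far these samples vary, which may be technical. They also do not say which part of the gene was deleted.

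Nefl, Nefm and Nefh, the light, medium and heavy neurofilament subunits, assemble with alpha-internexin (Ina) or peripherin (Prph) into filaments that fill large axons and set their calibre. In the adult cord, neurofilament transcripts are known from neurons with long thick axons, above all motor neurons, and peripherin is known from motor neurons and from sensory ganglion neurons. Gap43 is a membrane protein of growth cones that neurons make during axon growth and regeneration, Stmn2 (SCG10) binds tubulin and is likewise made by growing neurons, and Mapt encodes tau, which binds and stabilises axonal microtubules. The product of Dhtkd1 is a mitochondrial enzyme of lysine breakdown. Its human counterpart and that of Nefl are both known as genes of Charcot-Marie-Tooth disease, in which the nerves to the limbs degenerate.

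The array reads each transcript with probes of 60 bases. The 5 sequences below are those behind the results that follow: Gap43, whose groups did not overlap, Prph and Nefm, which varied most among the wild-type arrays, and the Nefh and Mapt probes that sit beside a second probe of the same gene. They are copied from the scanner files, 5′ to 3′, and no base is capitalised because no stretch within them was singled out.

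Gap43 probe: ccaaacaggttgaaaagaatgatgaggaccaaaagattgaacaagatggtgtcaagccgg
Prph probe: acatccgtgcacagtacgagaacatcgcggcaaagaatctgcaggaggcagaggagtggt
Nefm probe: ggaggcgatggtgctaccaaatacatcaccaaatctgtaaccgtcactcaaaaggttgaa
Nefh probe, the dimmer one: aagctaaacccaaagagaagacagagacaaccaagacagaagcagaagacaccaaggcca
Mapt probe across a gap: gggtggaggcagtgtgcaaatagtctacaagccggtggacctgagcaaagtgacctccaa

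On the mm9 build of the array design, the Gap43 probe is placed at chr16:42292428-42340593 on the minus strand and the Mapt probe shown at chr11:104179551-104182711 on the plus strand. These placements span 48166 and 3161 bases for a probe of 60 bases, so each probe joins pieces of its transcript that lie apart in the genome. The Prph probe lies at chr15:98887297-98887356, the Nefm probe at chr14:68738193-68738252 and the Nefh probe shown at chr11:4839629-4839688. Exons and untranslated parts were not assigned, since an annotation of that build was not used here. Nefl and Nefm are next to each other among protein-coding genes of chromosome 14 (order from the RefSeq table of GRCm38.p6), and none of the other members lies next to another.

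All 14 probes were well above background on all 6 arrays and none was saturated. The scanner's processed signal of the brighter Nefl probe ran from 127617 to 172028 intensity units and that of the Gap43 probe from 790 to 1329, against 950 to 1055 for the 75th percentile of an array. A second, dim Stmn2 probe (chr3:8547585-8547644), designed on a clone from neonatal cerebellum, read only 27.3 to 35.2 units. Signals below are log2 of the processed intensity minus the log2 of the array's 75th percentile, so a value of 0 is the 75th percentile of that array. Levels of different probes are not compared, because probes differ in how strongly they bind.

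The targeted gene, Dhtkd1, was lower in the null group at both of its probes, by a log2 difference of -1.08 (SE 0.08) and -1.07 (SE 0.28), with every null array below every wild-type array. No probe on the array passed an adjusted p under 0.05 by limma (lowest adjusted p 0.0922). The arrays lay on 2 slides, and their scans grouped the same way. Slide 1 held wild-type replicate 2 and the 3 null samples, and slide 2 held wild-type replicates 1 and 3. A comparison within slide 1 therefore rests on wild-type replicate 2 alone.

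Of the 14 member probes, 0 passed an adjusted p under 0.05 by limma (Benjamini-Hochberg over 33191 probes, of which 0.00% passed). At an unadjusted p under 0.05 there was 1, Gap43, which was higher in null samples, where 5.51% of all probes were higher at that level, 2.68% were lower and 8.19% differed in either direction. With quantile normalization those shares were 3.81% higher and 4.09% lower. Gap43 was also the only member whose groups did not overlap, where 9.49% of all probes had every null array above every wild-type array and 4.84% every null array below. A count of 1 in 14 probes is near both background shares. Of the 14 probes 6 were higher and 8 lower in null samples, and the median log2 difference over the 8 genes was -0.06, beside 0.02 over all 21441 genes, each gene taken by its probe of highest mean.

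**Figure D1:**
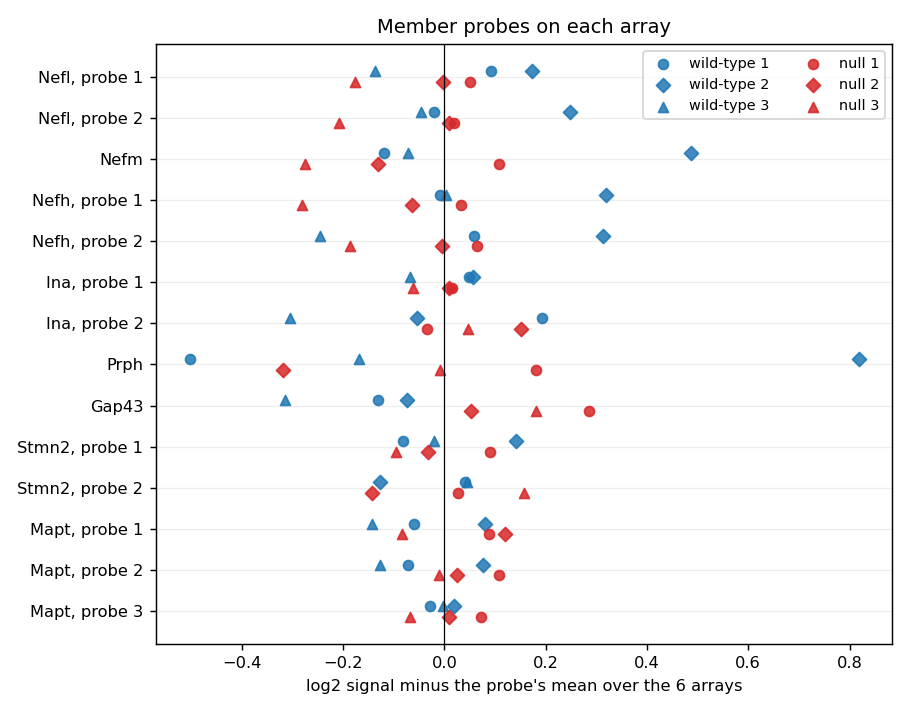
Signal of each of the 14 member probes on each of the 6 arrays, as log2 signal minus the mean of that probe over the arrays (x axis), with wild-type arrays in blue, null arrays in red and replicate numbers 1, 2 and 3 as circle, diamond and triangle. The Gap43 arrays of the 2 groups are apart, while wild-type replicate 2 lies to the right at Nefl, Nefm, Nefh and Prph, farthest at Prph.

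Gap43 read -0.08, -0.03 and -0.27 in wild-type replicates 1, 2 and 3 and 0.33, 0.10 and 0.23 in null replicates 1, 2 and 3. All 3 null samples lay above all 3 wild-type samples, with null replicate 2 and wild-type replicate 2 nearest to each other. The group means were -0.13 ± 0.13 (SD, n = 3) and 0.22 ± 0.12 (SD, n = 3), a log2 difference of 0.35 (SE 0.10), or 1.27-fold higher in null samples with a 95% interval of 1.07 to 1.52-fold. The unadjusted p was 0.0158 and the adjusted p 0.550 by limma, and the exact 2-sided permutation p was 0.1, the smallest that 3 against 3 arrays allow. The difference was 0.40 (SE 0.11) without wild-type replicate 2 and 0.25 (SE 0.15, unadjusted p 0.152) with slide as a block, so the unadjusted call was lost with the block. It was lost as well without null replicate 1 (difference 0.29, unadjusted p 0.0527).

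Among 8 general neuron markers, the array mean (each gene's log2 signal minus its mean over the 6 arrays, averaged over the genes) ranged from 0.01 to 0.07 over the null arrays and from -0.09 to 0.03 over the wild-type arrays. These ranges overlapped. With each gene taken by its probe of highest mean, 0 of the 8 markers passed at an unadjusted p under 0.05. Of the 8, 4 were higher and 4 lower in null samples, with a median log2 difference of 0.00. Other probes of these genes could differ more, in both directions. Another Elavl3 probe was at -0.51 (unadjusted p 0.00679 by limma). Syt1 was at 0.37 at its probe of highest mean and at 0.25 to 0.42 at the others, with an unadjusted p of 0.0386 by limma at that of 0.42. Rbfox3 was at 0.20 at its probe of highest mean, with every null array above every wild-type array, as at 9.49% of all probes. The part of these markers in the Gap43 difference was not tested. In RNA from whole tissue, fewer cells of a type and less RNA per cell cannot be told apart.

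The neurofilament subunits were slightly lower in null samples at all 5 of their probes, none of which passed. Nefl, which can form filaments with each of the other subunits, read 7.14, 7.41 and 7.12 in wild-type and 7.18, 7.17 and 6.95 in null replicates 1, 2 and 3 at its brighter probe (chr14:68705638-68705698). Wild-type replicate 2 was the highest and null replicate 3 the lowest, and of the 4 arrays between them both null arrays lay above both wild-type arrays. The log2 difference was -0.12 (SE 0.12, adjusted p 0.785 by limma), with a 95% interval of 0.75 to 1.12-fold for null over wild-type. At the other Nefl probe (chr14:68706866-68706925) it was -0.09 (SE 0.11), again with wild-type replicate 2 highest and null replicate 3 lowest.

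Nefm was printed 10 times on each array, so its measurement error within an array can be seen. The mean of its spots was 4.60, 5.21 and 4.65 in wild-type and 4.83, 4.59 and 4.44 in null replicates 1, 2 and 3. The SD between the 10 spots was 0.03 to 0.05 on 5 of the arrays and 0.21 on the array of null replicate 1, where the lowest spot read 4.34 and the highest 4.97. The lowest spot of wild-type replicate 2 (5.14) was above every Nefm spot of the other 5 arrays. The log2 difference of -0.20 (SE 0.19, adjusted p 0.787 by limma) had a 95% interval of 0.63 to 1.21-fold.

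**Figure D2:**
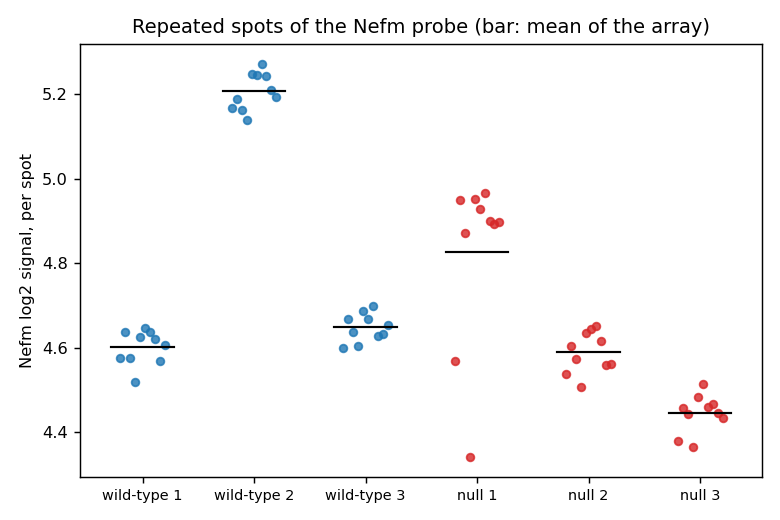
Log2 signal of each of the 10 Nefm spots on each array (points, wild-type blue and null red) with the mean of the array as a bar. The spots of wild-type replicate 2, from 5.14 to 5.27, stand above all others, and null replicate 1 has a pair of low spots.

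Nefh, whose long tail carries many phosphorylation sites, read 6.00, 6.33 and 6.01 in wild-type and 6.04, 5.94 and 5.73 in null replicates 1, 2 and 3 at its brighter probe (chr11:4838918-4838977). This was the largest decrease among the neurofilament probes, at -0.21 (SE 0.13, adjusted p 0.696 by limma; 0.69 to 1.08-fold), and the groups overlapped only in that null replicate 1 exceeded wild-type replicates 1 and 3. The probe printed above gave 3.87, 4.13 and 3.57 in wild-type and 3.88, 3.81 and 3.63 in null replicates, a difference of -0.08 (SE 0.16). Wild-type replicate 2 was again the highest at both.

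Ina, a neurofilament partner that neurons make early in development, differed by 0.11 (SE 0.14) at its brighter probe (chr19:47099050-47099109) and by -0.02 (SE 0.07) at the other (chr19:47099350-47099409). The brighter probe read 3.44, 3.19 and 2.94 in wild-type and 3.21, 3.40 and 3.29 in null replicates 1, 2 and 3. Here wild-type replicate 1 was the highest and wild-type replicate 3 the lowest, which is not the order seen at the neurofilament subunits. At the dimmer Ina probe wild-type replicate 2 was the highest (1.8837), as at those subunits, with wild-type replicate 1 close to it (1.8755). The 95% intervals were 0.85 to 1.37-fold and 0.87 to 1.12-fold, so the dimmer probe bounds a change of Ina more tightly.

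Prph had the widest spread of all members. It read -0.04, 1.28 and 0.30 in wild-type and 0.64, 0.14 and 0.46 in null replicates 1, 2 and 3. Wild-type samples held both the lowest and the highest value, and all 3 null samples lay between them. The wild-type SD was 0.69 (n = 3) against 0.25 (n = 3) in null samples, and the log2 difference was -0.10 (SE 0.35, adjusted p 0.943 by limma) with a 95% interval of 0.51 to 1.70-fold. This interval takes in changes larger than that of Gap43 in either direction.

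Stmn2 differed by -0.03 (SE 0.10; 0.84 to 1.16-fold) at its brighter probe (chr3:8561261-8561320), where wild-type replicates read 3.01, 3.24 and 3.07 and null replicates 3.18, 3.06 and 3.00. The dim Stmn2 probe differed by 0.03 (SE 0.11). Unlike Gap43, which shares its link to axon growth, Stmn2 had overlapping groups at both probes.

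Mapt differed little between the groups at each of its 3 probes. Its brightest probe (chr11:104191345-104191404) read 5.55, 5.60 and 5.58 in wild-type and 5.65, 5.59 and 5.51 in null replicates 1, 2 and 3, a difference of 0.01 (SE 0.07) with a 95% interval of 0.89 to 1.14-fold. The Mapt probe shown above and the remaining Mapt probe (chr11:104193311-104193370) each differed by 0.08 (SE 0.09 and 0.10), with intervals that reach 1.22-fold and 1.25-fold. Adjusted p by limma was 0.796 to 0.977 over the 3 probes.

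**Figure D3:**
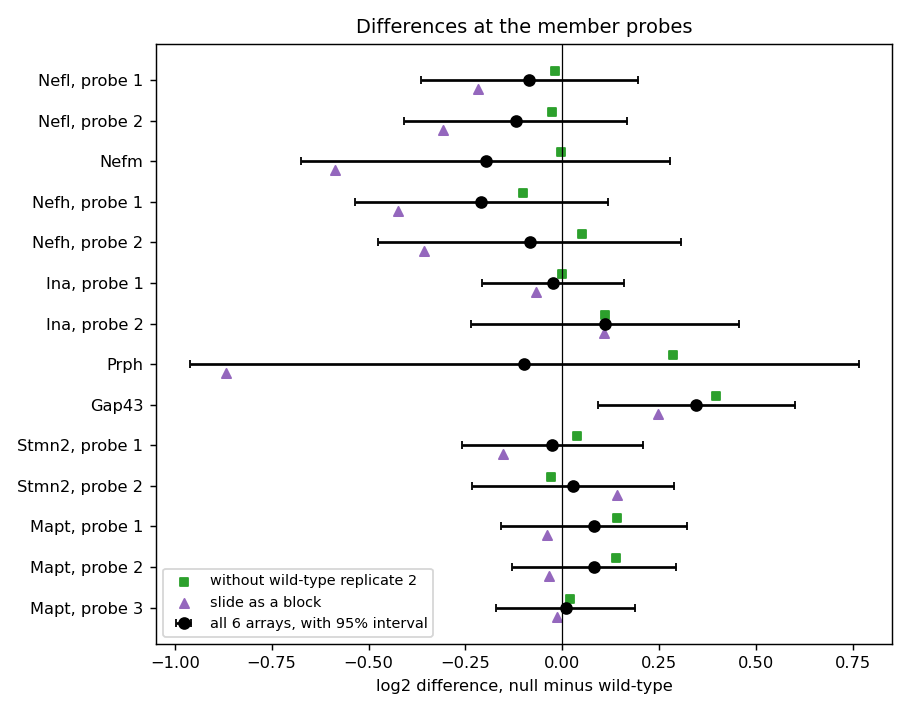
Log2 difference, null minus wild-type, at each member probe (black points, with the 95% interval by limma as bars), without wild-type replicate 2 (green squares) and with slide as a block (purple triangles). Among the intervals from all 6 arrays, Gap43 alone lies to one side of 0, and the Prph difference runs from -0.87 with the block to 0.29 without wild-type replicate 2.

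The neurofilament and peripherin differences depended on single samples. Wild-type replicate 2 was the highest of the 6 arrays at 6 of 6 probes of Nefl, Nefm, Nefh and Prph and at 8 of the 14 member probes, a grouping made after the values were seen, while it was the highest at 20.4% of all 33191 probes. Without it the Nefm difference was 0.00 (SE 0.14), the brighter Nefl probe -0.03 (SE 0.11) and the brighter Nefh probe -0.10 (SE 0.12). Prph turned to 0.29 (SE 0.19), and the dimmer Nefh probe to 0.05 (SE 0.14). Leaving out null replicate 3, the lowest at most neurofilament probes, also made the differences smaller, to -0.11 for Nefm, -0.05 and -0.02 for the brighter and dimmer Nefl probes and -0.12 and -0.01 for the brighter and dimmer Nefh probes. Prph was at 0.04 without null replicate 2. With slide as a block, where that sample is the only wild-type sample compared, Nefm differed by -0.59 (SE 0.17, unadjusted p 0.0196), Prph by -0.87 (SE 0.24, unadjusted p 0.0164) and the brighter Nefh probe by -0.42 (SE 0.15, unadjusted p 0.0400), and 0 of the 14 passed after adjustment (lowest adjusted p among these 3 by limma 0.572). In that fit 3 of the 14 probes were lower at an unadjusted p under 0.05, against 3.17% of all probes lower and 7.33% in either direction. The slide and the sample cannot be told apart in this comparison.

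Motor neuron markers had, in their mean, the same highest and lowest arrays as Prph. The array mean of 8 such genes was 0.51 in wild-type replicate 2, the highest, and -0.33 in wild-type replicate 1, the lowest, as for Prph. It was 0.06 in wild-type replicate 3 and 0.12, -0.24 and -0.11 in null replicates 1, 2 and 3. Wild-type replicate 2 was the highest of the 6 arrays at 5 of the 8 genes. These include Chat, the enzyme that makes acetylcholine, at -3.14 there against -4.56 to -3.96 on the other arrays. Another is Slc5a7, the choline transporter of cholinergic neurons, at 1.92 against 0.84 to 1.49. The remaining genes were highest in a null sample. Isl1 and Isl2 were highest in null replicate 3 (-3.49 and -0.29), and Mmp9 was highest in null replicate 2 (-1.69). Of the 8 motor neuron genes 0 passed at an unadjusted p under 0.05 between genotypes. Wild-type replicates 2 and 1 were also the highest and lowest arrays for the mean of the oligodendrocyte markers (0.28 and -0.27). The same held for stathmins and tubulins (0.23 and -0.12), where wild-type replicate 2 was the highest array at 7 of the 11 genes. It held in the mean of nerve injury and regeneration genes (0.32 and -0.30), but there that array was highest at only 4 of the 12. Those 4 include Sprr1a, at 0.15 there against -3.79 to -1.82 elsewhere, and Atf3, at -1.03 against -3.32 to -2.28. Both lists are described below. As extremes of a list mean they were therefore not particular to motor neuron markers. The part of any of these lists in the Prph and neurofilament values was not tested.

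Sensory ganglion markers had another pattern. Of 8 listed genes 4 could be tested, and their array mean was 1.76 in null replicate 3 and -0.49 to -0.28 on the other 5 arrays. Avil, a protein of sensory neurons, read -2.92 in null replicate 3 against -6.57 to -6.06 elsewhere. In this same sample the neurofilament probes were at or near their lowest, and Prph was higher only in wild-type replicate 2 and null replicate 1. Schwann cell markers, 6 of 6 tested, ran from -1.62 in null replicate 1 to 2.18 in wild-type replicate 1. Of the 6, 1 (Pmp2) was lower in null samples at an unadjusted p under 0.05 by limma, against 2.94% of all genes. Pmp2 was far below the 75th percentile, at -2.91, -5.58 and -4.52 in wild-type and -7.50, -7.00 and -6.43 in null replicates 1, 2 and 3. With signals this low the call is not read as a difference. Skeletal muscle markers, 5 of 5 tested, were highest in wild-type replicate 2 (0.89) and lowest in wild-type replicate 3 (-1.81). The part of these tissues in the member values was not tested. As a check of the labelled tissue, all 8 general neuron, 6 oligodendrocyte and 4 astrocyte markers read above the 75th percentile of the array on all 6 arrays. Of the motor neuron markers 1 of 8 did so, and likewise 0 of 6 Schwann cell, 1 of 5 skeletal muscle and 0 of 4 sensory ganglion markers.

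**Figure D4:**
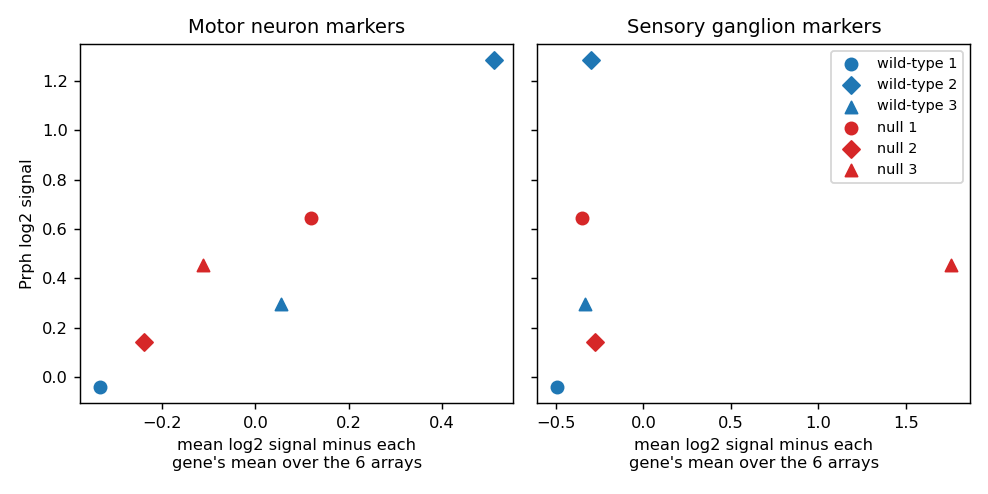
Prph log2 signal of each array (y axis) against the array mean of 8 motor neuron markers (left) and of 4 sensory ganglion markers (right), with wild-type arrays in blue and null arrays in red. Wild-type replicate 2 is highest and wild-type replicate 1 lowest for Prph and for the mean of the motor neuron markers. The oligodendrocyte mean, not drawn, has the same highest and lowest arrays. Null replicate 3 stands apart at 1.76 on the right.

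Profiles like the mean of the 8 members were those of Adat3, Ppia, Psmb1, Frs2 and Ankrd6. They were the 5 named genes with the smallest root mean square distance, 0.02 to 0.03 on the log2 scale, from that mean over the 6 arrays. The mean profile was 0.24 in wild-type replicate 2, 0.09 in null replicate 1 and -0.12 to -0.04 in the other samples. It does not describe each member. By the probe of highest mean, wild-type replicate 2 was the highest array at 5 of the 8, and not at Ina, Gap43 or Mapt. Ppia, a ubiquitous prolyl isomerase, is a common reference gene, and Psmb1 is a subunit of the proteasome.

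Related genes were read from 6 lists of 11, 9, 13, 12, 18 and 7 genes, and each listed gene could be tested. Of these, 0 passed after adjustment by limma, 3 were higher and 3 lower in null samples at an unadjusted p under 0.05, against 5.81% and 2.94% of all genes and 8.75% in either direction. Nerve injury and regeneration genes had 2 of 12 higher and 0 lower at that level, with a median log2 difference of 0.19. Adcyap1, the neuropeptide PACAP, read 0.72, 0.38 and 0.64 in wild-type and 1.16, 1.02 and 1.02 in null replicates, a difference of 0.49 (SE 0.11, adjusted p 0.463). Npy, neuropeptide Y, differed by 0.40 (SE 0.13, adjusted p 0.577). The groups did not overlap for either gene. The unadjusted call of Adcyap1 was kept in all 6 fits that left out 1 array, and that of Npy in 2 of 6, lost without wild-type replicate 2 or 3 or null replicate 1 or 2. The transcription factor Atf3 and the small proline-rich protein Sprr1a, both known from injured neurons, differed by -0.69 (SE 0.57) and 0.19 (SE 1.08), and both were highest in wild-type replicate 2. Sox11 differed by 0.19 (SE 0.11) at its probe of highest mean and by 0.15 to 0.31 at its other probes. At the probes of 0.31 the unadjusted p was 0.0170 and 0.0384 by limma, outside the count above. Of the 12 genes 8 were higher and 4 lower in null samples.

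Growth cone proteins had 1 of 13 higher and 0 lower at that level, with a median of 0.07. The gene was Gprin1, a growth cone protein that binds G proteins, at 0.74, 0.52 and 0.55 in wild-type and 0.94, 0.86 and 0.87 in null replicates, a difference of 0.29 (SE 0.09, adjusted p 0.552 by limma). Basp1, a membrane protein of growth cones akin to Gap43, differed by 0.24 (SE 0.10) with overlapping groups, and Marcks, which like Gap43 is a substrate of protein kinase C, by 0.12 (SE 0.07), here without overlap. Marcksl1, of the same family as Marcks, differed by -0.28 (SE 0.19), and by -0.41 at its other probe. Without wild-type replicate 2 or without null replicate 1 the unadjusted call of Gprin1 was lost.

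Stathmins and tubulins had 0 of 11 past an unadjusted p of 0.05, with 9 lower and a median of -0.09. The smallest p values were those of Tuba1a, an alpha-tubulin of neurons, at -0.27 (SE 0.13), and of Tubb4a, a beta-tubulin of neurons and oligodendrocytes, at -0.30 (SE 0.16). At 7 of the 11 genes wild-type replicate 2 was the highest array. Microtubule-associated proteins had 1 of 9 lower and 0 higher with a median of 0.07. The gene was Map4, which is not confined to neurons, at -0.27 (SE 0.10, adjusted p 0.597 by limma), with its other probes at -0.27 to -0.02. Its unadjusted p of 0.0378 became 0.0739 with slide as a block, and the call was also lost without wild-type replicate 2 or 3 or null replicate 2 or 3.

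Genes that handle neurofilaments and tau, such as the kinases that phosphorylate them, had 0 of 18 past an unadjusted p of 0.05 and a median of 0.03. Cdk5r1, the activator of the neuronal kinase Cdk5, differed by 0.20 (SE 0.11) and the kinase Fyn by -0.12 (SE 0.07). Macf1 differed by -0.14 (SE 0.13) at its probe of highest mean, but by 0.47 at its other probe (unadjusted p 0.0117 by limma). Other intermediate filament genes had a median of -0.30. Beside 2.94% of all genes, 2 of these 7 were lower at an unadjusted p under 0.05. These were Nes, nestin of precursor and vascular cells, at -0.82 (SE 0.30, adjusted p 0.591 by limma), and Lmna, a protein of the nuclear lamina, at -0.30 (SE 0.09, adjusted p 0.552), whose 2 other probes differed by -0.27 and -0.30. Without wild-type replicate 1 the Nes difference was -0.52, and it was -0.28 with slide as a block. The unadjusted call of Nes was kept in 1 of the 6 fits that left out an array, that without wild-type replicate 2. The call of Lmna was lost with slide as a block (unadjusted p 0.0812) and without null replicate 2 or 3. Neither forms filaments in axons. Gfap, the filament of astrocytes, differed by -0.44 (SE 0.37), and by -0.26 and 0.19 at its other probes.

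**Figure D5:**
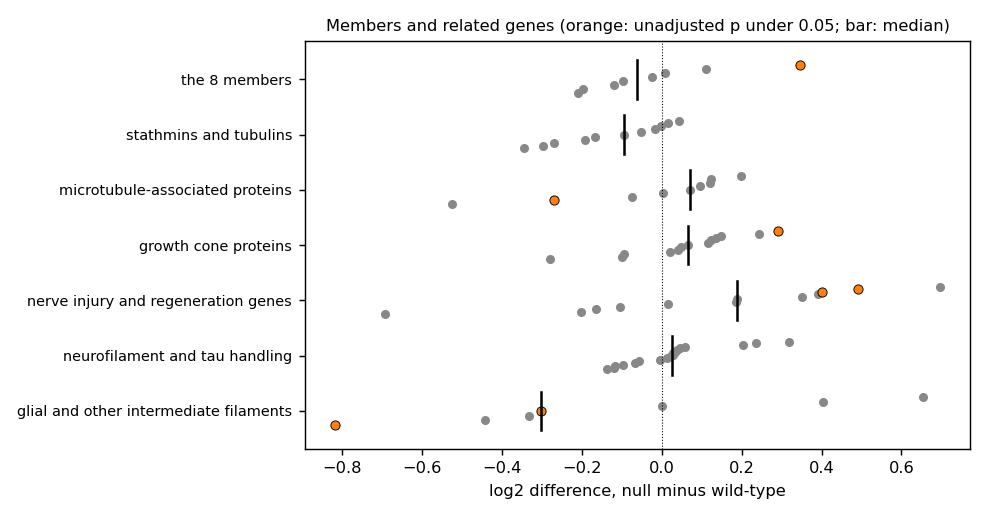
Log2 difference, null minus wild-type, for the 8 members and for the genes of the 6 related lists, each gene by its probe of highest mean (points), with the median of the list as a bar and genes at an unadjusted p under 0.05 in orange. The median of the members is -0.06, with Gap43 as the single orange point at 0.35.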

How the data were processed

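Per the file headers, the deposited scanner intensity was made with Agilent Feature Extraction 10.7.3.1 (design 014868, mm9) and is background-subtracted and detrended within an array, not normalized between arrays. The authors' deposited log2 table, whose method is not given in the sources used here, has columns with the same quantiles and follows the same arrays; it served as an alternative. Log2 processed intensity was set against each array's 75th percentile, outlier spots were left out (58 to 89 per array), and spots of a probe were averaged. Probes well above background on at least 3 of 6 arrays (33191) were each fitted with limma 3.58.1 in R 4.3.3, 2-sided, null minus wild-type without covariates, with Benjamini-Hochberg adjustment. The fit was tested on simulated data. Members, lists and tests were chosen with earlier results of these data known. Named genes were the members, list genes at an unadjusted p under 0.05 (at most 4 a list) or else the 2 of smallest p, and the 5 nearest profiles. Basp1, Marcks, Marcksl1, Atf3, Sprr1a, Gfap, Chat, Slc5a7, Isl1, Isl2, Mmp9, Elavl3, Syt1 and Avil are examples chosen after their values were seen. So are Pmp2, Sox11, Macf1 and Rbfox3. Alternatives covered scaling, background, filters, moderation, slide, replicate number and each array left out.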

Additional observations from a re-analysis of the deposited data

How the results depend on the processing

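None of the 14 member probes passed an adjusted p under 0.05 in any of the 19 alternatives by limma. Gap43 stayed higher in null samples in all 19, by 0.25 to 0.41, with an adjusted p of 0.354 to 0.928. With quantile normalization or the authors' table, 2 probes had null above wild-type without overlap (Gap43 and the gapped Mapt probe), against 7.02% and 7% of all probes. With median centring 1 lay below (Ina, dimmer probe), against 7.51% of all probes. Differences near 0 turned sign with quantile normalization (dim Stmn2 probe -0.0805, brightest Mapt probe -0.0095), the authors' table (-0.0805 and -0.0094), median centring (-0.0272 and -0.0457) and normexp (dimmer Ina probe 0.0021). With slide as a block and within slide 1 the 3 Mapt probes turned to -0.0389, -0.0347 and -0.0139, and the member median was -0.23. With the block 0 members were higher and 3 lower at an unadjusted p under 0.05, against 4.16% and 3.17% of all probes. Within slide 1, where a single wild-type array is compared, 2 probes lay above and 8 below without overlap, as did 31.3% and 28.7% of all probes. Of the related genes, 8 were lower at an unadjusted p under 0.05 with the block, against 3.17% of all probes. With trend and robust moderation 5 were higher and 5 lower, against 5.17% and 3.03% of all probes. The 3 genes named as lower were not among the 8 with the block, and the cause was not tested.

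Leaving out each array in turn gave 0 to 1 members higher and 0 lower at an unadjusted p under 0.05, where 3.62% to 8.92% of all probes were higher and 1.67% to 3.96% lower. Without overlap 1 to 2 members lay above and 0 to 2 below, where 12.3% to 21.6% of all probes lay above and 6.79% to 12.7% below. The member median was -0.12 to 0.03, above 0 without wild-type replicate 2. The related genes gave 1 to 7 higher and 0 to 10 lower, the most without wild-type replicate 1 (7 and 10), where the shares of all probes also rose, to 8.92% and 3.96%. The ranges that crossed 0 were -0.37 to 0.29 for Prph, -0.23 to 0.0519 for the dimmer Nefh probe, -0.0764 to 0.039 and -0.0445 to 0.11 for the Stmn2 probes, -0.0643 to 0.0009 and -0.0147 to 0.23 for the Ina probes, and -0.0251 to 0.0456 for the brightest Mapt probe. The replicate numbers pair no samples by their labels, and same-numbered samples correlated at -0.03, -0.09 and 0.30 in their deviations. With a replicate block Gap43 differed by 0.35 (unadjusted p 0.0377 by limma). In that fit 5 related genes were higher and 0 lower, against 5.34% and 2.31% of all probes, so that Map4, Nes and Lmna lost their unadjusted call. Signals over background do not limit the bright members, but 3 arrays per group limit all of them.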
